A study of Homo sapiens with 6 samples.

Results

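Chromatin regions that were open in all 3 vehicle-treated libraries of MM.1S myeloma cells, and kept an accessibility peak in exactly 1 of the 3 libraries treated with CB-6644, were examined. Peaks of the 6 Omni-ATAC lists on chromosomes 1 to 22, X and Y were merged wherever they shared at least 1 bp, which gave 89196 regions. Of these, 3165 (3.55%) met the rule, and they were 5.64% of the 56098 regions with a peak in all 3 DMSO libraries. The regions were chosen by the peak calls of all 6 libraries, so the numbers of regions, the keeping library and the strength of the peaks are given as descriptions without a test. MM.1S is an established human multiple myeloma line, and it was the single line in these lists. Cells of the CB-6644 group received 120 nM of the compound for 72 h and those of the DMSO group received the solvent (3 libraries each). Both groups were sorted by flow cytometry for live cells before transposition, so cells that had died were not represented. The sources used here do not say whether replicates came from separate cultures.

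CB-6644 is an inhibitor of RUVBL1 and RUVBL2. Both are AAA+ ATPases and are shared subunits of the INO80, SRCAP and TIP60 chromatin remodelling complexes. In Omni-ATAC, the Tn5 transposase inserts adapters into accessible DNA, and a peak caller marks stretches with more insertions than the local background. Myeloma cells descend from plasma cells, whose open distal elements often carry sites for IRF4 and its partners and for E proteins such as TCF4. MAF was a further factor in the footprinting of the study. ATF4 pairs with CEBP proteins on a composite site in the integrated stress response, the program that answers amino acid shortage and unfolded protein. A peak list of bulk cells cannot tell fewer cells with an open region from a lower accessibility in each cell.

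The lists held 58563 to 79020 peaks. Promoters of all 9 plasma cell markers, among them SDC1, IRF4, PRDM1 and XBP1, had a peak in each of the 6 libraries, against 2 of 5 B cell markers, 1 of 5 T cell markers, 2 of 4 epithelial and 1 of 4 erythroid markers in each library, and 2 of 5 myeloid markers (1 of 5 in DMSO replicate 3). The list of CB-6644 replicate 2, and to a lesser degree that of DMSO replicate 1, stood apart by peak length: their shortest peaks were 65 and 91 bp and their median peaks 137 and 196 bp, against shortest peaks of 131 to 152 bp and median peaks of 318 to 378 bp in the other 4 lists. Without these 2 libraries, 5081 regions had a peak in both remaining DMSO libraries and in exactly 1 of the other 2 CB-6644 libraries. Values without the 2 libraries are given for the strength of the kept peaks, the promoter share, GC content, motif shares and gene lists, while single regions are described with all 6.

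The reference sequence of the strongest examples is shown first, because the motif counts further on were made in such windows. Each line holds the summit base of the strongest peak of the region with 100 bp on each side, read from the + strand of hg38, for the first 2 printable regions of each keeping library in order of their weakest peak. Capitals mark every match, on either strand, to any of 16 short consensus motifs.
IMMP2L, kept by CB-6644 replicate 1, chr7:111559074-111559274, hg38, + strand: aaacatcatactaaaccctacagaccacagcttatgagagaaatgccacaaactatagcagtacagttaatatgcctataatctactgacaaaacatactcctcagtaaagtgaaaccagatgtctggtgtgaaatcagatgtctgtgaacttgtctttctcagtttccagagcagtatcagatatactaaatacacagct
SAMSN1, kept by CB-6644 replicate 1, chr21:14589949-14590149, hg38, + strand: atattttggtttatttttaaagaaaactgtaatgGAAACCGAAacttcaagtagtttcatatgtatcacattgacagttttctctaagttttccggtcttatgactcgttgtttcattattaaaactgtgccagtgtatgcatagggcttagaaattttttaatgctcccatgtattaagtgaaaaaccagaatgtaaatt
CERS6, kept by CB-6644 replicate 2, chr2:168574980-168575180, hg38, + strand: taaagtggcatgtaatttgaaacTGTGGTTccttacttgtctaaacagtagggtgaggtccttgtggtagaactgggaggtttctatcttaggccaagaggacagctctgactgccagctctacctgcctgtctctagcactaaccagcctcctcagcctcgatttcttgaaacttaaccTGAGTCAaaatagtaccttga
TAAR1, kept by CB-6644 replicate 2, chr6:132673476-132673676, hg38, + strand: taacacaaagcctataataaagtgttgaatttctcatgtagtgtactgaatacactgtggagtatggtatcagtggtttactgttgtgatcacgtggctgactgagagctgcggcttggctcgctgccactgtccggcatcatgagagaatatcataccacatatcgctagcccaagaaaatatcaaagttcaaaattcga
HECTD2, kept by CB-6644 replicate 3, chr10:91389730-91389930, hg38, + strand: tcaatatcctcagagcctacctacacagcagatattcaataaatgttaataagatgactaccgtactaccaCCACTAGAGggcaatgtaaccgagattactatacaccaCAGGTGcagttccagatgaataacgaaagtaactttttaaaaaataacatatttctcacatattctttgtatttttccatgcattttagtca
TMEM170B, kept by CB-6644 replicate 3, chr6:11496252-11496452, hg38, + strand: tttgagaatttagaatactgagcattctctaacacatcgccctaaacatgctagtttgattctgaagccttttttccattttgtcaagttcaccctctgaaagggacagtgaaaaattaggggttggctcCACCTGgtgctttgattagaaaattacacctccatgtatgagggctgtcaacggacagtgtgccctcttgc
Neither the IMMP2L nor the TAAR1 window held any of the 16 motifs. The SAMSN1 window held an IRF match (consensus GAAANNGAA) at position 35, counted from 1 at the left end. A RUNX match (TGTGGTT) at position 24 and an AP-1 match (TGANTCA) at position 181 lay in the CERS6 window. Near HECTD2, a CTCF match (CCACNAGNG) at position 72 was followed by an E-box (CAGGTG) at position 110, and the TMEM170B window carried the E-box on the - strand at position 131.

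A second set shows, for each keeping library, the strongest region that held the ATF4-CEBP composite motif (TGATGNAA), since this motif separated the regions most clearly from those that lost all 3 CB-6644 peaks. These were chosen after their values were seen.
CPLANE1, kept by CB-6644 replicate 1, chr5:37197725-37197925, hg38, + strand: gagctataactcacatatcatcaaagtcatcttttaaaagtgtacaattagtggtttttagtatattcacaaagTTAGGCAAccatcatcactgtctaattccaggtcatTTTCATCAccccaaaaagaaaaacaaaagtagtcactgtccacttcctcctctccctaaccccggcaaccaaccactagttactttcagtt
HAPSTR1, kept by CB-6644 replicate 2, chr16:9079115-9079315, hg38, + strand: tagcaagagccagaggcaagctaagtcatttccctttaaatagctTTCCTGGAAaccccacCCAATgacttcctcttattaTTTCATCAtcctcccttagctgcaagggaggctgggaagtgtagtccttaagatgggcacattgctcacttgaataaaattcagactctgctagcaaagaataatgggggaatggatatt
GLIS3, kept by CB-6644 replicate 3, chr9:4305699-4305899, hg38, + strand: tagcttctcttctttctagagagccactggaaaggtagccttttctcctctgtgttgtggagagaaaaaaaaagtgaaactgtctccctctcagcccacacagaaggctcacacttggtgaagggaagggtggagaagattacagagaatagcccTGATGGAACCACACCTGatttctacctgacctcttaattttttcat
In the windows of CPLANE1 and HAPSTR1 the composite motif was on the - strand, at positions 111 and 82, and in that of GLIS3 on the + strand at position 156. The CPLANE1 window also held a CEBP match (TTGCNNAA) at position 75, and the HAPSTR1 window a STAT (TTCNNNGAA) and an NFY (CCAAT) match. The run of capitals in the GLIS3 window covers 3 overlapping matches, to ATF4-CEBP, RUNX and the E-box. A match is a string of letters in the reference and does not show that a factor was bound.

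CB-6644 replicate 2 kept the largest number of the 3165 regions. It kept 1239 (39.15%, 95% Wilson interval 37.5 to 40.9, counting error only), replicate 1 kept 1045 (33.0%, 31.4 to 34.7) and replicate 3 kept 881 (27.8%, 26.3 to 29.4). As a background, replicates 1, 2 and 3 had a peak in 86.9%, 81.3% and 86.8% of the regions open in all 3 DMSO libraries, and each was the only CB-6644 library with a peak in 1.86%, 2.21% and 1.57% of them. Replicate 2 thus had the fewest calls in these regions and the most that no other CB-6644 library shared. Among regions with a peak in 2 CB-6644 libraries, 4541 of 6828 were missed by replicate 2, against 1206 missed by replicate 1 and 1081 by replicate 3. The share of replicate 2 depended on how a call was defined. It was 9.79% when a library had to cover at least 50% of the merged region with its peaks, 31.3% when each list was shortened to the same number of top peaks, and 41.2% with windows of 100 bp on each side of the summits. The part of the short peaks of replicate 2 in its share was not tested further.

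**Figure D1:**
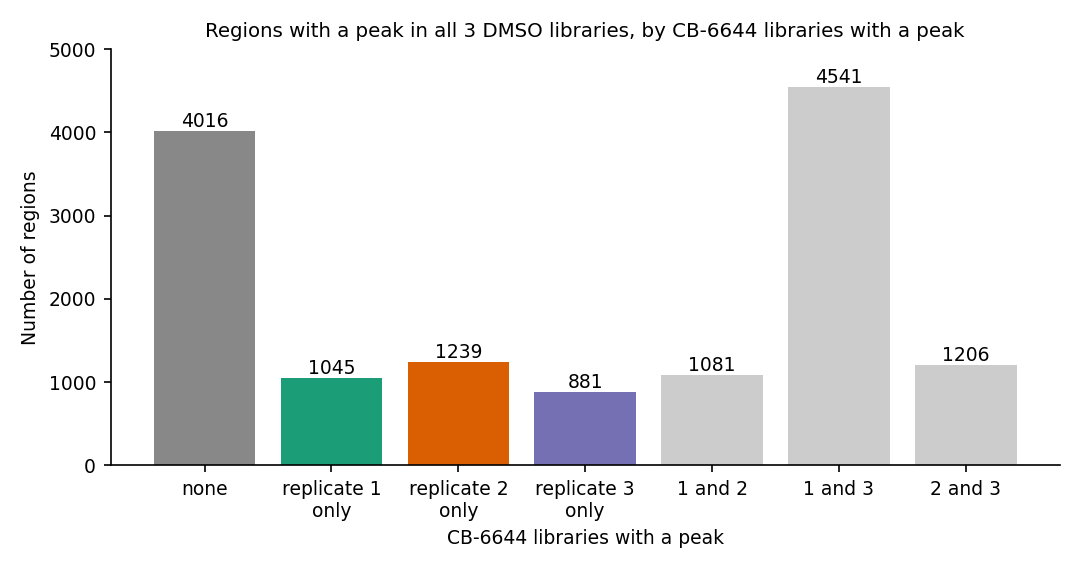
Number of regions with a peak in all 3 DMSO libraries (y axis), by which CB-6644 libraries had a peak (x axis). The coloured bars are the 3165 regions kept by a single CB-6644 library (1045, 1239 and 881), between 4016 regions with no CB-6644 peak and 6828 with 2, and the 42089 regions with a peak in all 6 libraries are left out of the plot.

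Most kept peaks were in the lower part of their own list. Peak strength was expressed as the percentile of the -log10 p-value within its own list, where 100 is the strongest peak. A percentile is a rank within 1 list, and it does not put lists of 58563 to 79020 peaks on one scale. The keeping peak had a median percentile of 10.2 in replicate 1, 22.1 in replicate 2 and 8.78 in replicate 3. For the same regions the weakest of the 3 DMSO peaks had a median of 20.1, the middle one 29.0 and the strongest 37.2. The kept peak was below all 3 DMSO peaks in 1916 of 3165 regions (60.5%) and above all of them in 337 (10.65%). In 1227 regions (38.8%) it lay in the lowest 10% of its list. On the scale of fold enrichment over background, which the peak caller gives, the median of the kept peaks was 7.86 in replicate 1, 8.28 in replicate 2 and 7.58 in replicate 3, and that of -log10 q was 11.7, 10.8 and 11.8, so replicate 2 stood out less than by percentile. By fold enrichment the kept peak was below all 3 DMSO peaks in 1828 regions (57.8%) and above all of them in 324 (10.2%). The part of list length in either comparison was not tested.

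By keeping library these values differed. Among regions kept by replicate 1, 70.2% had their kept peak below all 3 DMSO peaks and 4.79% above, and the values for replicate 3 were 68.9% and 3.97%. Regions kept by replicate 2 were below in 46.4% and above in 20.3%. By fold enrichment the spread was narrower, with 61.9%, 55.2% and 56.4% below for replicates 1, 2 and 3 and 8.42%, 13.4% and 7.95% above. Without CB-6644 replicate 2 and DMSO replicate 1, kept peaks had a median percentile of 13.6 in replicate 1 and 13.1 in replicate 3, and 66.6% were below and 12.9% above both DMSO peaks. In what follows, above, within and below refer to percentiles. Of the 166 kept peaks in the upper 50% of their list, 162 were in replicate 2, 1 in replicate 1 and 3 in replicate 3. DMSO replicate 1, the other list with short peaks, held the strongest of the 3 DMSO percentiles in 66.8% of regions kept by CB-6644 replicate 2, against 28.9% and 29.5% of those kept by replicates 1 and 3. The part of peak length in this pairing of the 2 libraries was not tested.

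**Figure D2:**
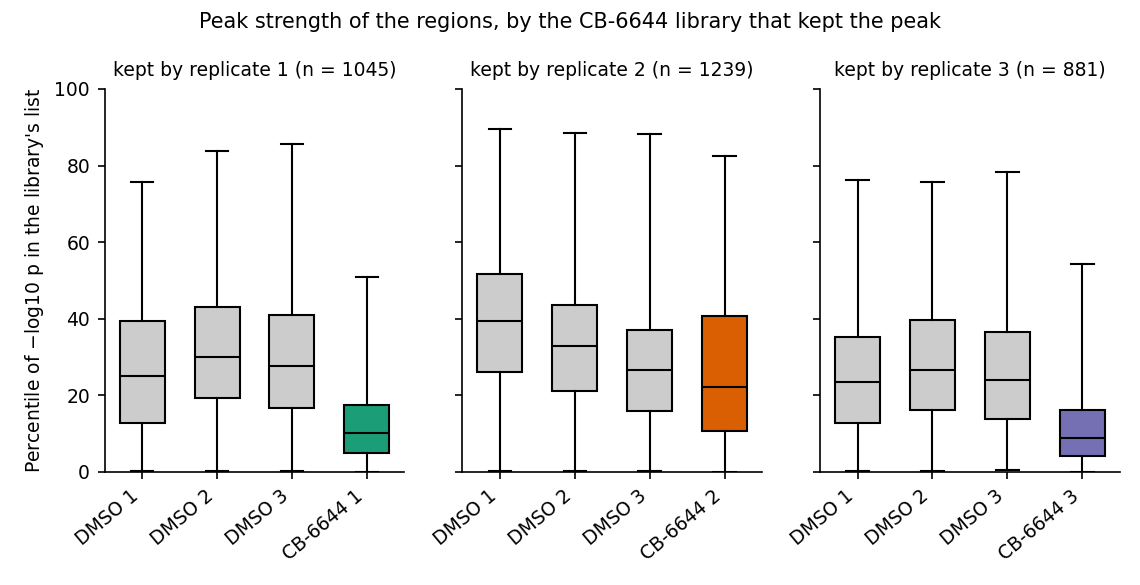
Percentile of -log10 p within each list (y axis, 100 is the strongest) for the 3 DMSO libraries (grey) and the keeping CB-6644 library (colour), with a panel for each keeping library. Boxes span the quartiles, lines are medians and whiskers run from the lowest to the highest region; the kept peak had a median of 10.2, 22.1 and 8.78 in the panels from left to right.

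DMSO peaks were also compared with those of regions just outside the rule. The median percentiles in DMSO replicates 1, 2 and 3 were 23.1, 26.5 and 24.1 in regions with no CB-6644 peak, 30.4, 29.85 and 25.8 in the regions with a single one, and 35.25, 37.7 and 35.15 in regions with 2. By keeping library they were 24.97, 29.85 and 27.5 for regions kept by replicate 1, 39.5, 32.95 and 26.6 for replicate 2, and 23.4, 26.5 and 24.1 for replicate 3, the last much like the regions with no CB-6644 peak. Regions open in all 6 libraries were far stronger, with DMSO medians of 72.3, 69.7 and 67.05.

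Summits in the keeping library lay near those of the DMSO libraries. Regions kept by replicates 1, 2 and 3 had median lengths of 310, 248 and 313 bp. Merging of overlapping peaks thus keeps the summits of a region close, and the distances are a description. The median distance between the kept summit and a DMSO summit was 14 to 26 bp over the 9 pairs of libraries, close to the 11 to 25 bp between DMSO summits of the same regions. The libraries without a call seldom had another peak nearby: their nearest peak was a median of 9625 to 14741 bp from the summit, and it lay within 1000 bp in 7.27% to 11.2% of regions. Peaks overlapping the region were excluded by the rule, and no share for other regions was computed beside these.

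The leading regions show how the peaks stood in each library. Near CERS6, which encodes a ceramide synthase, an intronic region at chr2:168574952-168575175 had percentiles of 86.2, 83.75 and 80.0 in DMSO replicates 1 to 3 and 77.3 in CB-6644 replicate 2. Fold enrichment over background, as the peak caller gave it, was 40.4, 31.55 and 27.8 in the DMSO libraries and 27.2 in the keeping one. The nearest peaks of CB-6644 replicates 1 and 3 were 8309 and 8249 bp away. This was the strongest of all regions by its weakest peak, and its RUNX and AP-1 matches are in the sequence shown above.

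The same library kept an intergenic region 14.2 kb from TAAR1, a trace amine receptor gene, at 75.2 against 86.9, 78.9 and 67.6 in DMSO. It also kept regions 70.7 kb from the neurofilament gene NEFL (73.3 against 78.5, 72.9 and 69.0) and 29.75 kb from HEYL, a Notch-responsive repressor (75.95 against 77.2, 66.5 and 63.0). In these 3 regions the kept percentile lay within the range of the DMSO libraries.

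Replicate 1 kept no region this strong. Its leading one was in an intron of IMMP2L, which encodes a mitochondrial peptidase subunit, with 75.75, 83.8 and 85.6 in DMSO and 50.9 in the keeping library. An intronic region of SAMSN1, an adaptor gene of blood cells, had 56.3, 56.7 and 60.8 in DMSO and 49.9 in CB-6644 replicate 1. In both, the kept peak was below each DMSO peak. The IMMP2L region had enrichments of only 12.1, 12.1 and 11.7 in DMSO and 7.05 in the keeping library, against 21.1, 21.8, 21.9 and 19.1 at SAMSN1.

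In replicate 3 the leading region was intergenic, 19.4 kb from HECTD2, a ubiquitin ligase gene, with 43.25, 62.7 and 51.2 in DMSO and 50.2 in the keeping library. A region 41.3 kb from TMEM170B had 45.05, 41.1 and 47.7 in DMSO and 49.5 in CB-6644 replicate 3. The latter kept peak was above all 3 DMSO peaks. A region 50.3 kb from SMNDC1, a splicing factor gene, was also above them, with 47.2 against 39.05, 43.1 and 41.55, though its enrichment was only 5.10 against 4.69, 4.30 and 4.10.

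Most of the regions were distal. A protein-coding transcription start site lay within 1000 bp of 259 (8.18%), while 48.5% were intergenic and 40.6% intronic, and 533 (16.8%) were over 200 kb from any such site. The promoter share was 3.83 percentage points above that of the 4016 regions without a CB-6644 peak (4.36%, 95% Newcombe interval of the difference 2.70 to 4.99). It was within counting error of that of regions with 2 CB-6644 peaks (8.32%, difference -0.14, -1.27 to 1.05) and 23.5 points below the 31.7% of regions open in all 6 libraries. Regions are not replicates of the treatment, so these intervals cover counting error and not the spread between cultures.

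Position differed by keeping library. Of the regions kept by replicate 2, 10.5% were near a start site, against 4.69% of those kept by replicate 1 (difference 5.80 points, 3.65 to 7.95) and 9.08% for replicate 3 (difference 1.41, -1.20 to 3.93). Over 200 kb from a start site lay 22.2% of regions kept by replicate 1, 12.5% by replicate 2 and 16.6% by replicate 3. The median GC content of the windows around the summits followed the order of the promoter share, with 41.8%, 48.3% and 44.3%, beside 41.8% in regions without a CB-6644 peak and 54.7% in regions open in all 6 libraries. Regions kept by replicate 2 were also shorter (median 248 bp against 310 and 313 bp). Without CB-6644 replicate 2 and DMSO replicate 1, the promoter share was 8.84%, and the median GC content was 45.8% beside 42.3% in regions with no CB-6644 peak. With the 20000 strongest peaks of each list the promoter share was 21.9%.

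Among the motifs, the ATF4-CEBP composite site set the regions apart from those with no CB-6644 peak. It matched 180 of 3165 windows (5.69%) against 512 of 4016 (12.75%), a difference of -7.06 points (-8.37 to -5.75). The share was slightly above the 4.35% of regions with 2 CB-6644 peaks (difference 1.34, 0.43 to 2.31) and above the 2.53% of regions open in all 6 libraries (3.16, 2.39 to 4.03). Over all 89196 regions it was 3.98%. The shares for the 3 keeping libraries were 5.07%, 6.05% and 5.90%, and no pair differed beyond counting error, with the largest difference 0.98 points (-0.94 to 2.86) between replicates 2 and 1. Without CB-6644 replicate 2 and DMSO replicate 1 the share was 4.68% and the difference from regions with no CB-6644 peak -5.58 points (-6.48 to -4.66). The study's own footprinting of its Omni-ATAC data had reported lower binding of ATF4/CEBP and IRF4 after CB-6644. This motif was taken from that result, so its shares are not independent of it.

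GC content was compared as well, since it varied between the sets. When shares were weighted to the GC content of the 3165 regions in 5 classes, the ATF4-CEBP share was 12.2% in regions without a CB-6644 peak, 4.39% with 2 and 4.02% with all 3, beside the 5.69% in question. In each class the regions with no CB-6644 peak had the higher share than those with 1: 12.4% against 5.71% below 38.8% GC, and 7.52% against 2.63% in the class of highest GC. Against regions with 2 CB-6644 peaks, the share was lower in the lowest class (5.71% against 6.06%) and higher in the other 4, with 7.96% against 5.33%, 7.199% against 5.03%, 4.87% against 3.46% and 2.63% against 2.20%.

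The 180 regions with the composite motif had a median middle DMSO percentile of 35.1, against 28.35 in the other 2985, while the median kept percentile was 12.2 against 12.7. Strength in DMSO was part of the rule, so this is a description. The regions shown above for CPLANE1, a gene of cilium assembly, HAPSTR1, a stress response gene, and GLIS3, a zinc finger factor gene, had kept percentiles of 47.4, 56.4 and 32.8. In DMSO replicates 1 to 3 the CPLANE1 region had 49.0, 47.3 and 49.3, the HAPSTR1 region 62.7, 53.7 and 51.8, and the GLIS3 region 45.7, 35.1 and 32.85. The kept peak was within the DMSO range at CPLANE1 and HAPSTR1 and just below it at GLIS3. At CPLANE1 a peak of CB-6644 replicate 3 lay only 392 bp from the summit, and the nearest of replicate 2 51174 bp away. The nearest peaks of the libraries without a call were 1785 and 1796 bp away at HAPSTR1 and 7241 and 7700 bp at GLIS3.

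**Figure D3:**
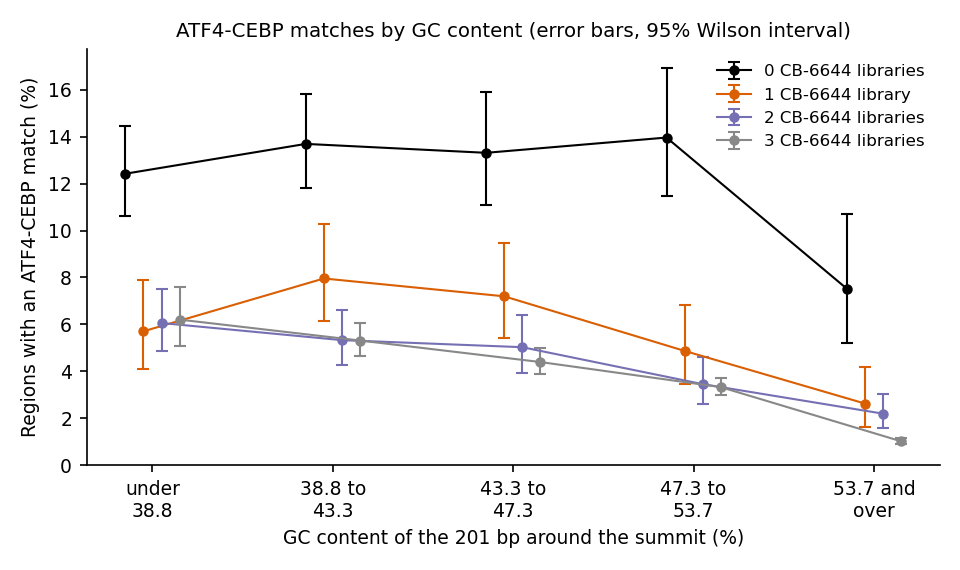
Share of regions with an ATF4-CEBP match (y axis, %) in 5 classes of GC content of the window around the summit (x axis, %), for regions with a peak in all 3 DMSO libraries and in 0, 1, 2 or 3 CB-6644 libraries. Points are shares and bars 95% Wilson intervals; regions with 1 CB-6644 peak were below those with none in every class (5.71% against 12.4% in the lowest, 2.63% against 7.52% in the highest).

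IRF matches were found in 653 regions (20.6%), against 22.8% with no CB-6644 peak (difference -2.13, -4.03 to -0.20), 19.4% with 2 and 11.2% with all 3, and 13.7% over all regions. Weighted to the GC content of the 3165 regions, the share was 19.5% with 2 and 19.7% with all 3, so most of the gap to regions open in all libraries was gone. The first difference turned to 1.79 points when shares were weighted to equal GC content and to 1.31 (-2.85 to 5.61) with the 20000 strongest peaks of each list, so no direction is given for it. Between keeping libraries the IRF share was 27.4% for replicate 1, 14.6% for replicate 2 and 21.1% for replicate 3. The difference of replicate 2 from replicate 1 was -12.8 points (-16.1 to -9.42), and after weighting to equal GC content the shares were 18.55% and 23.3%. RUNX matched 12.99% of the regions, against 16.8% with no CB-6644 peak (difference -3.80, -5.43 to -2.14). It matched 14.05% with 2, 10.3% with all 3 and 11.0% over all regions. Weighted to equal GC content, RUNX was at 15.1% with no CB-6644 peak, 14.2% with 2 and 16.1% with all 3. By keeping library RUNX matches were at 15.6%, 9.85% and 14.3%, and at 13.9%, 11.0% and 13.7% after the weighting. IRF matched 19.7% of the regions and RUNX 11.6% without CB-6644 replicate 2 and DMSO replicate 1.

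The SP motif of GC-rich promoters (GGGCGG) matched 8.50% of the regions, against 3.71% with no CB-6644 peak (difference 4.79, 3.67 to 5.95), 8.91% with 2 and 28.9% with all 3, and 17.7% of all regions. Weighted to equal GC content, the share was 6.94% with no CB-6644 peak, 8.29% with 2 and 12.3% with all 3. By keeping library it was 4.21%, 11.5% and 9.31%, and 7.14%, 8.26% and 10.2% after the weighting, so no order of the libraries is given. It was 9.09%, against 5.34% with no CB-6644 peak, without CB-6644 replicate 2 and DMSO replicate 1. CTCF matches, the letters of the insulator protein, were at 5.97% against 3.14% with no CB-6644 peak (2.83, 1.86 to 3.84) and 5.97% over all regions. With 2 CB-6644 peaks they were at 6.09% and with all 3 at 5.91%, so it was the set with no CB-6644 peak that was low. Weighted to equal GC content, CTCF matches were at 3.88% with no CB-6644 peak, 6.03% with 2 and 4.55% with all 3. They were at 4.11% in regions kept by replicate 1 and 7.83% in those kept by replicate 2 (difference 3.71, 1.77 to 5.65), and at 5.01% and 6.31% after the weighting. Without the 2 libraries the CTCF share was 7.05% against 3.87% with no CB-6644 peak.

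MAF (TGCTGAC) and E-box matches, the other motifs followed in the study, did not differ from the neighbouring sets beyond counting error with all 6 libraries. MAF matched 3.54% of the regions, 3.16% with no CB-6644 peak and 3.88% with 2. It was more frequent in regions open in all 6 libraries (5.42%, difference -1.88, -2.51 to -1.145) and over all regions (5.31%). E-box matches were at 24.0%, 22.4% and 25.4%. They were at 29.1% in regions open in all 6 libraries (difference -5.08, -6.6 to -3.50) and 27.7% over all regions. Weighted to equal GC content, regions open in all 6 libraries had 6.10% for MAF and 27.1% for the E-box. Without CB-6644 replicate 2 and DMSO replicate 1 the E-box share was 3.33 points above that of regions with no CB-6644 peak (1.81 to 4.86). With all libraries and equal GC content the share with no CB-6644 peak was 26.2%, above the 24.0%, so no direction is given. Both were less frequent than in the mirror set, the 784 regions with a peak in all 3 CB-6644 libraries and exactly 1 DMSO library, where MAF matched 12.9% (difference -9.34, -11.9 to -7.07) and the E-box 40.3% (-16.3, -20.1 to -12.6). That mirror set had ATF4-CEBP matches in 2.55% and IRF matches in 8.80%. NF-kB matches (GGGANNTTC) were at 2.43%, beside 2.34% with no CB-6644 peak, 3.16% with 2 (difference -0.73, -1.39 to -0.02) and 4.72% in the mirror set (-2.29, -4.07 to -0.88). None of the 4 motifs of the study (IRF, ATF4-CEBP, MAF and E-box) matched in 1676 regions (52.95%). Exactly 1 of the 4 matched in 1281 regions.

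**Figure D4:**
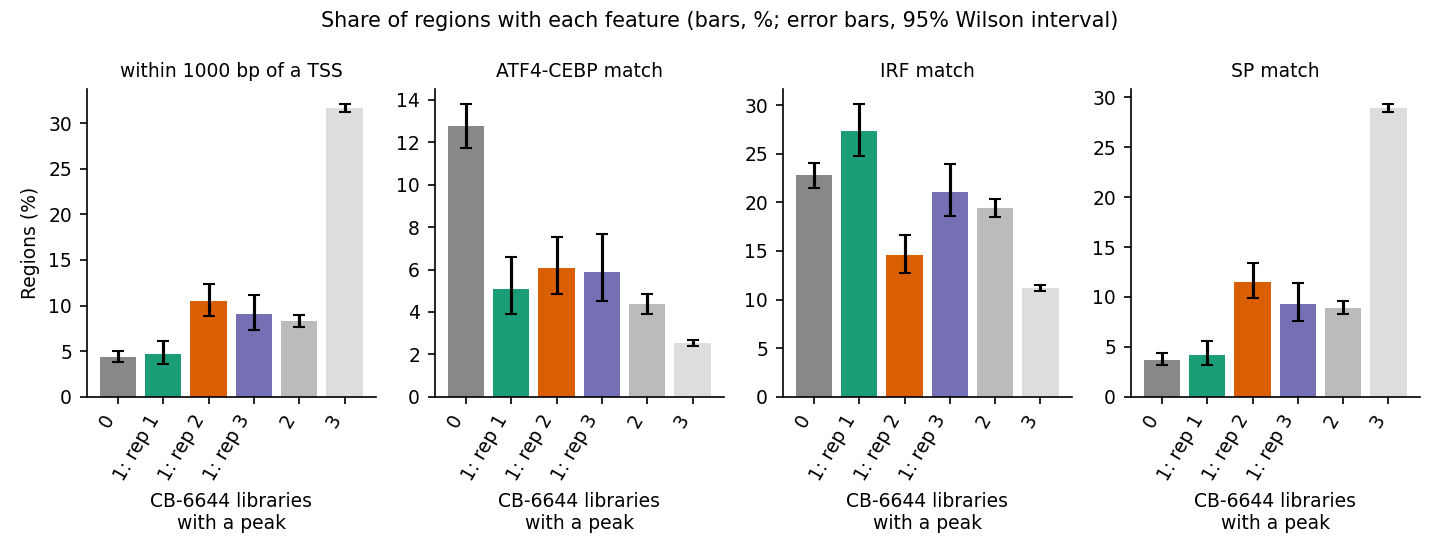
Share of regions (y axis, %) within 1000 bp of a protein-coding start site and with an ATF4-CEBP, IRF or SP match, for regions with a peak in all 3 DMSO libraries and in 0, 1, 2 or 3 CB-6644 libraries (x axis), where the sets with 1 are split by keeping library. Error bars are 95% Wilson intervals; ATF4-CEBP shares were alike for the 3 keeping libraries (5.07%, 6.05% and 5.90%), while IRF shares ran from 14.6% to 27.4%.

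Neighbours along the chromosome were much like the other regions open in DMSO. The nearest other region open in all 3 DMSO libraries, where within 50 kb, was itself one of the 3165 in 6.55% of cases, beside the 5.64% they made up of such regions. Nearest neighbours with a peak in all 6 libraries made up 74.1%, against 75.03% of all regions open in the 3 DMSO libraries. By chromosome the share of regions kept by a single CB-6644 library ran from 3.72% on chromosome 19 to 7.41% on chromosome X, and none of the 26 regions on Y was one.

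Assigned to the protein-coding gene with the nearest start site within 200 kb, 2632 regions fell to 2223 genes. Of these genes, 339 had at least 2 regions, 57 at least 3 and 9 at least 4. In 18 genes each of the 3 libraries kept at least 1 region. DLG2, a synaptic scaffold gene of 2173 kb, had 7, of which replicates 1, 2 and 3 kept 4, 1 and 2. PCDH15, a cadherin gene of 1825 kb, had 4. Around DLG2 there were also 4 regions with no CB-6644 peak, 6 with 2 and 17 with all 3, and around PCDH15 4, 4 and 6. These counts were not scaled to gene length.

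Among shorter genes with 4 regions were MEF2C, a transcription factor gene of B cell development, and TNFAIP3, which encodes the A20 inhibitor of NF-kB signalling. All 3 CB-6644 libraries kept regions at both. Also assigned to MEF2C were 2 regions with no CB-6644 peak, 2 with 2 and 12 with all 3, and to TNFAIP3 2, 3 and 17. Near TNFAIP3, replicate 2 kept an intergenic region 36.9 kb from the start site (chr6:137904487-137905150), with 78.5, 76.8 and 64.5 in DMSO and 32.5 in the keeping library, and it held an ATF4-CEBP match. The nearest peaks of the other CB-6644 libraries were 7008 bp away. Replicate 1 kept a region 112.5 kb upstream with 4.64, 27.2 and 38.0 in DMSO and 6.52 in the keeping library. DMSO replicate 1 was itself low there. A region 90.0 kb downstream was kept by replicate 3 at 8.16, below 24.97, 17.4 and 9.09 in DMSO. By fold enrichment that peak was within the DMSO range, with 8.08 against 10.7, 9.59 and 7.63. The remaining one overlapped an exon with untranslated sequence and was kept by replicate 2 at 19.55, below 38.6, 31.9 and 26.65.

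At MEF2C, the intronic region chr5:88808239-88808455 had 60.8, 62.0 and 69.1 in DMSO and 28.6 in replicate 1, which kept it. Replicate 2 kept a second intronic region 2.26 kb from a start site at 43.7, within the 40.2, 42.1 and 50.5 of DMSO. It also kept chr5:88879938-88880129, with ATF4-CEBP and AP-1 matches, at 38.0 and above the 19.9, 12.8 and 12.2 of DMSO. So by percentile the kept peak was below, within and above the DMSO range at regions of the same gene. By fold enrichment the second intronic region was above all 3 DMSO peaks, with 11.1 against 8.79, 7.62 and 7.65. An intergenic region 167.6 kb away was kept by replicate 3 at 14.2, below 32.9, 21.2 and 27.1.

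**Figure D5:**
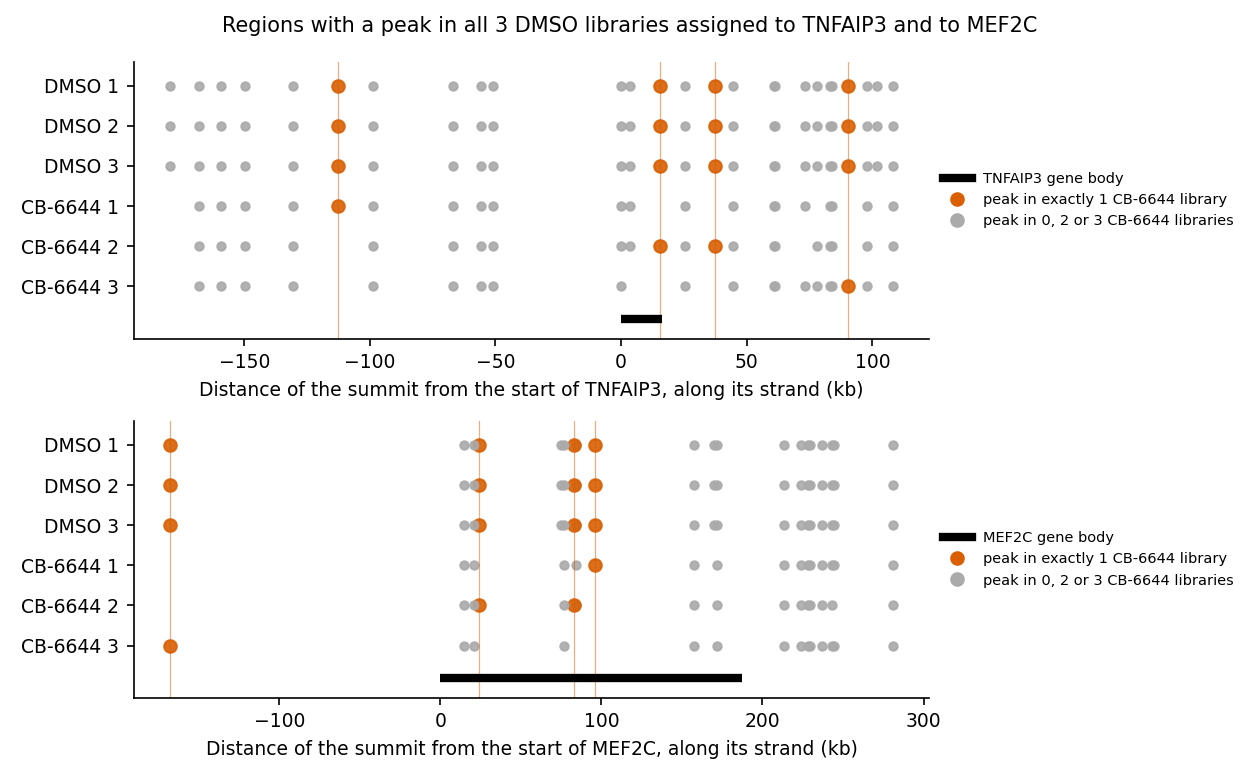
Peaks of each library (rows) at regions open in all 3 DMSO libraries and assigned to TNFAIP3 (top) or MEF2C (bottom), by distance from the start of the gene along its strand (x axis, kb). Orange points are the 4 regions per gene with a peak in exactly 1 CB-6644 library, grey points all other regions and black bars the gene bodies; each of the 3 CB-6644 libraries kept at least 1 orange region at both genes.

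The other genes named by number were the glycosyltransferase gene MGAT5, the potassium channel subunit gene KCNAB1, ZNF618 and ARHGAP26 with 4 regions each, and the chromatin organiser gene SATB1, CERS6 and DPY19L1 with 3. All 3 regions at CERS6 and all 3 at DPY19L1 were kept by replicate 2. At MGAT5 and KCNAB1 replicate 2 kept 3 of 4 and replicate 3 the other, and at ZNF618 replicate 2 kept 3 and replicate 1 the other. Other regions open in all 3 DMSO libraries, with 0, 2 and 3 CB-6644 peaks, numbered 1, 5 and 24 at MGAT5. They numbered 0, 4 and 6 at KCNAB1, 1, 0 and 1 at ZNF618, and 1, 4 and 17 at ARHGAP26. The numbers were 0, 1 and 4 at SATB1, 0, 3 and 7 at CERS6, and 0, 1 and 3 at DPY19L1. These counts were not tested. At SATB1, replicate 2 kept a region 162.5 kb away, in an intron of TBC1D5, at 40.9, below 65.7, 70.95 and 60.3 in DMSO. Replicate 3 kept an intergenic region 197.6 kb away at 20.3, below 57.0, 63.3 and 74.7. It also kept the remaining SATB1 region, 0.684 kb from a start site, at 17.3, within the 17.1, 43.3 and 44.15 of DMSO. By fold enrichment that peak was below all 3 DMSO peaks, with 5.69 against 6.21, 8.12 and 8.20.

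Genes that bear on the treatment or on the plasma cell were looked up with 50 kb on each side. As a background, 5.64% of all regions open in all 3 DMSO libraries were kept by a single CB-6644 library. Counts as small as those of the looked-up genes do not separate a gene from that share, and none was tested. None of the 6 regions at RUVBL1 and 2 of the 8 at RUVBL2 that were open in all 3 DMSO libraries were kept by a single CB-6644 library. Both RUVBL2 regions were nearer to other genes, FTL and NTF4, and replicate 2 kept them. At IRF4, the master factor of plasma cells, 1 of 9 was kept, by replicate 2, at chr6:429846-430012, with 19.9, 23.8 and 21.2 in DMSO and 37.7 in the keeping library. That kept peak was above all 3 DMSO peaks. Another 3 regions at IRF4 had no CB-6644 peak and 5 had a peak in all libraries. PRDM1, which encodes the plasma cell repressor BLIMP1, had 1 of 16, an intronic region of the neighbouring gene ATG5 that replicate 3 kept at 3.86, below 39.9, 38.9 and 38.2. XBP1 had 1 of 8, at HSCB, kept by replicate 2 at 37.0 against 35.25, 35.9 and 35.7. By fold enrichment that peak was the weakest of the 4, with 10.8 against 13.3, 14.6 and 14.35.

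CDK6, a kinase of the G1 phase, had 2 of 21, beside 4 with no CB-6644 peak and 6 with 2. The intronic region chr7:92815418-92815740 had 73.7, 77.5 and 72.0 in DMSO and 7.75 in replicate 2, the widest gap among the looked-up genes. The nearest peaks of replicates 1 and 3 were 1631 and 1873 bp away. The other CDK6 region was weak in every library, with 9.58, 0.65 and 2.59 in DMSO and 12.2 in replicate 3.

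At MAF, 1 of 6 was kept by replicate 2 at 20.1, below 39.9, 34.9 and 31.45, and TCF4 had 1 of 11, kept by replicate 2 at 44.8 against 56.1, 39.15 and 45.1. By fold enrichment the TCF4 peak was above all 3 DMSO peaks, with 10.3 against 9.06, 5.55 and 5.77. ATF4 had 1 of 10, 40.03 kb away, kept by replicate 1 at 1.60, below 6.51, 20.3 and 13.9. That region was nearer to another gene, CACNA1I, at 10.5 kb. NFIA, a nuclear factor I gene, had 2 of 26, both kept by replicate 3, and SGK1, a kinase gene, 1 of 13, kept by replicate 2 at 40.9 against 49.8, 38.5 and 41.25. By fold enrichment the SGK1 peak was below all 3 DMSO peaks, with 11.6 against 18.3, 15.5 and 16.15. Within the 50 kb, DUSP22 (16 regions open in all 3 DMSO libraries), E2F1 (9), MYC (8), CEBPB (6) and CEBPG (3) had none. Farther out, replicate 3 kept a region assigned to DUSP22, 110 kb from its start site, at 8.16, below 29.5, 35.2 and 47.55. It also kept a region assigned to MAF, 167 kb away, at 15.4, below 21.3, 16.8 and 17.6. By fold enrichment this last peak was within the DMSO range, with 6.51 against 7.66, 6.02 and 6.20.

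Across 12 gene lists the regions made up 2.70% to 7.84% of the assigned regions open in all 3 DMSO libraries, beside 5.27% over all genes. The NF-kB list had 8 of 102 (7.84%), 4 of them the TNFAIP3 regions and the others at BCL2A1, an anti-apoptotic BCL2 family gene, BIRC3, NFKB1 and TRAF3. For the unfolded protein response and secretion the count was 6 of 104, among them the sensors ERN1, ATF6 and EIF2AK3. The ATF6 region, with an ATF4-CEBP match, had 51.3, 54.6 and 54.05 in DMSO and 14.99 in replicate 1, and the ERN1 region 54.5, 42.9 and 36.6 in DMSO and 25.55 in replicate 1. In both the kept peak had the lowest percentile of the 4. By fold enrichment the kept ERN1 peak was within the DMSO range, with 7.35 against 10.2, 6.53 and 5.78. The EIF2AK3 region was kept by replicate 3 at 21.4, above 9.58, 7.596 and 12.8.

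For the integrated stress response the count was 4 of 72, at the amino acid genes ASNS and MTHFD2 (kept by replicate 3), at SESN2 and at the cystine transporter gene SLC7A11 (kept by replicate 2). None of the 4 held an ATF4-CEBP match in its window. The ASNS region had 15.9, 21.2 and 10.95 in DMSO and 4.63 in the keeping library, and the SLC7A11 region 24.97, 23 and 14.7 in DMSO and 40.9 in the keeping library. Plasma cell genes had 8 of 169 (4.73%), including SDC1, which encodes the surface marker CD138, and CD38. The SDC1 region was kept by replicate 2 at 46.7, above 22.1, 14.2 and 6.58, and the CD38 region by replicate 1 at 6.85, below 31.5, 33.9 and 30.1.

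B cell genes had 4 of 85, interferon and IRF genes 4 of 105, MAPK feedback genes 8 of 166, MAF program genes 3 of 59, p53 targets 3 of 84, replication and E2F genes 3 of 67, D-type cyclin and partner genes 2 of 61, and genes of the complexes that contain RUVBL1 and RUVBL2 2 of 74. The BACH2 region, in an intron of this B cell repressor gene, held an ATF4-CEBP match and was kept by replicate 2 at 18.2, below 55.0, 42.95 and 38.8. Counts this small do not separate a list from the 5.27% over all genes, and no list was tested. Without CB-6644 replicate 2 and DMSO replicate 1 the range was 3.23% to 10.9%, beside 7.99% over all genes.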

How the data were processed

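Omni-ATAC peak lists of 6 MM.1S libraries were used. The submitters' processing notes name Bowtie2 2.4.2, MACS3 3.0 and hg38; other settings of the caller are not given in the sources used here. The deposited lists were called per library and hold for each peak a fold enrichment ratio, -log10 p and -log10 q, the last at least 3.01 in every list. They hold no read counts, so depth is unknown and the count test of the study's methods was not made. Peaks were merged at 1 bp of overlap and annotated with GENCODE release 44 (start sites of protein-coding transcripts of 20033 genes; intronic means inside a protein-coding gene and outside exons). Motifs were searched on both strands in 100 bp on each side of the strongest summit: those spelled out above, and CRE (TGACGTCA), EICE (GGAANTGAA), ETS (CCGGAAG) and OCT (ATGCAAAT). Named regions were the 5 per keeping library with the highest weakest percentile, those of the 12 genes with most regions (ties by mean percentile), of 16 looked-up genes and of 12 gene lists (1 of these genes is not reported here); others were chosen after their values were seen. The regions, genes, lists and the motifs of the study were chosen with earlier results of these data known. Shares carry Wilson and differences Newcombe 95% intervals. Merging and intervals were tested on simulated data. Python 3.11.15, pandas 2.3.3, scipy 1.17.1, pysam 0.24.0 and matplotlib 3.10.9 were used. Alternatives are given in the closing section.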

Additional observations from a re-analysis of the deposited data

How the results depend on the processing

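Keeping the same number of top peaks in each list gave 1791 regions, of which replicate 2 kept 31.3%, with 7.09% near a start site and ATF4-CEBP matches in 6.87%. With the 20000 strongest peaks of each list there were 526, with 29.7% kept by replicate 2, 21.9% near a start site and IRF matches in 17.7%. A -log10 q of at least 5 left 36.2% to replicate 2. Under 50% coverage of the region the 4 shares were 9.79%, 10.55%, 17.5% and, for ATF4-CEBP, 4.88%; with windows around summits replicate 2 kept 41.2% and 10.5% were near a start site. The 4 lists with longer shortest peaks gave 5081 regions and 4.68% for ATF4-CEBP. Start site windows of 2500 and 500 bp gave 11.6% and 5.85%, and motif windows of 50 bp on each side gave 12.9% for IRF and 2.88% for ATF4-CEBP, fewer bases being searched. Leaving out 1 library at a time gave 3648 to 8067 regions (8067 without CB-6644 replicate 3, 7758 without replicate 1 and 4886 without DMSO replicate 3), a replicate 2 share of 29.96% to 50.7%, a promoter share of 8.12% to 9.54%, IRF shares of 16.8% to 21.6% and ATF4-CEBP shares of 4.61% to 5.51%. The difference in IRF share from regions with no CB-6644 peak turned to 1.31 points with 20000 peaks and to 1.79 after weighting to GC content, an alternative chosen after seeing the data; the cause was not tested. That in ATF4-CEBP share stayed below 0 in every alternative run for it, from -9.39 to -4.92 points. For the replicate 2, promoter, IRF and ATF4-CEBP shares of the regions, and their number, 39 alternative values counted as unchanged and 37 as moved. Among the other shares and the differences, 254 counted as unchanged, 72 as moved and 2 as reversed in direction. Shares and differences were judged by their counting error, which the number of regions does not have. The fold enrichment scale, and the strength, GC content, further motifs and gene lists without CB-6644 replicate 2 and DMSO replicate 1, were also chosen after seeing the data. No paired analysis was possible because no result comes from a test and the lists give calls, not counts. Precision rests on the number of regions; depth is unknown and 3 libraries a group set the spread between samples.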
